A study of Mus musculus with 10 samples.

Results

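The replication-dependent histone genes encode the linker histone H1 and the core histones H2A, H2B, H3 and H4 that package newly copied DNA. They lie in clusters, have no introns in their coding part, and are transcribed mainly in S phase, when many copies must be made at once. Their mRNAs normally end in a stem-loop bound by SLBP and not in a poly-A tail, so a poly-A selected library holds only the part of their RNA that carries a tail or came through the selection without one. Some of these genes are known to give polyadenylated transcripts as well, mostly in cells that leave the cycle. The members were all genes typed protein coding in the deposited expression tables whose symbol begins with Hist1h, Hist2h, Hist3h or Hist4h, which gave 65 of 36586 genes. The Hist1 cluster on chromosome 13 held 55 of them, Hist2 on chromosome 3 held 8, and Hist3 (Hist3h2ba) and Hist4 (Hist4h4) held 1 each. By type there were 6 H1, 17 H2A, 18 H2B, 11 H3 and 13 H4 genes. The 2 genes of such a name that are typed as pseudogenes were left out.

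All 10 libraries came from mouse embryonic stem cells. RNA was measured in the JM8.N4 line in 1 library each of Rad23b-/- cells, Rad23b-/-Xpc KD1 cells, Rad23b-/-Xpc KD2 cells and wild-type cells; KD1 and KD2 are independent short hairpin RNAs against Xpc, and both were used in cells that also lack Rad23b. RAD23B, which partners XPC and CETN2 in the sensor of DNA lesions for nucleotide excision repair, was mapped by chromatin immunoprecipitation with affinity-purified guinea pig antibodies in Xpc-/- cells (1 library) and in wild-type D3 cells (replicates 1 and 2), each beside normal guinea pig IgG. The labels do not say whether the replicates came from separate cultures, or whether each mutant line is 1 clone.

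The targeted genes went with the labels. Rad23b had 43.9, 35.8 and 52.5 RPKM (reads per kilobase of transcript, scaled to the mapped reads of the library) in Rad23b-/-, KD1 and KD2 cells, against 229 RPKM in wild-type cells. Xpc had 8.34, 0.915 and 0.895 RPKM in the same mutants, against 8.73 RPKM in wild-type cells. Here and below, a deposited RPKM of exactly 1 was read as 0. All 10 embryonic stem cell markers examined were above 0 in every library, with summed RPKM of 4442, 6212 and 5201 in the mutants and 6138 in wild-type cells. Of the markers of other cells, the 10 fibroblast genes summed to 2.369 to 3.469 RPKM with Postn at 0 throughout and Lum, Col3a1 or Dcn at 0 in some libraries. The 6 primitive endoderm genes summed to 5.845 to 8.381 RPKM, with Afp at 0 in KD1 cells. The 8 trophectoderm genes summed to 141.9, 126.7 and 97.98 RPKM in Rad23b-/-, KD1 and KD2 cells and 69.96 RPKM in wild-type cells, with none at 0; their part in the differences below was not tested. Among genes that reached 1 RPKM in the mutant or in wild type, the median was lower in each mutant, by log2 values of -0.16, -0.14 and -0.14, and differences of histone genes are also given relative to that shift.

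Histone promoters carry a small set of known elements: the TATA box (TATAAA), the CCAAT box bound by NF-Y, and in H2B promoters an octamer (ATTTGCAT) bound by OCT1. RefSeq promoters (build GRCm38.p6, from 250 bases before to 50 bases after the start) could be matched to 58 members. These 5 are shown because the RNA and binding results below turn on them: the member of highest RNA level, the H4 gene with no RNA listed in 2 mutants, an H2B promoter with the octamer, the member at least 2-fold higher in each mutant, and the H3 gene of highest wild-type level. Capitals mark matches to these 3 motifs on either strand, and none of the motifs contains another. The windows are chr13:22041313-22041612 (minus strand), chr6:136804382-136804681 (minus), chr13:22035571-22035870 (plus), chr13:23683910-23684209 (minus) and chr13:23535168-23535467 (plus), and these coordinates differ from those of the deposited files, which are in mm9.
Hist1h4i: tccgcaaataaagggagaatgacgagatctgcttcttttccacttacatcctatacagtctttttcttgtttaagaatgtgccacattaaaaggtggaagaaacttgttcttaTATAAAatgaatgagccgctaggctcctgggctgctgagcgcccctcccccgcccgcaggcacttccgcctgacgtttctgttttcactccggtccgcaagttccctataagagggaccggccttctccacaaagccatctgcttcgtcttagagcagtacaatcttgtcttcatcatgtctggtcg
Hist4h4: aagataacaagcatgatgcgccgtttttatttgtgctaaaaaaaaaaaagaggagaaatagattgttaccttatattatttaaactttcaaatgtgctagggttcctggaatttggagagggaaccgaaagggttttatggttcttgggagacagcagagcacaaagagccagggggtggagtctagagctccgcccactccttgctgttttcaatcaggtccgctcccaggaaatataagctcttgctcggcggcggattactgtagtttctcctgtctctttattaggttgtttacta
Hist1h2bk: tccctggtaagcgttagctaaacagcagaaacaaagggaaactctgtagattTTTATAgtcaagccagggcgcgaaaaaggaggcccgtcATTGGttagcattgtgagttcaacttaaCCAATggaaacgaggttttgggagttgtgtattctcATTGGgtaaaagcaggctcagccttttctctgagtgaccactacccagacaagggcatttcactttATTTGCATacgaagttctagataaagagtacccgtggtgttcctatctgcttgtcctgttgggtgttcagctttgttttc
Hist1h2ac: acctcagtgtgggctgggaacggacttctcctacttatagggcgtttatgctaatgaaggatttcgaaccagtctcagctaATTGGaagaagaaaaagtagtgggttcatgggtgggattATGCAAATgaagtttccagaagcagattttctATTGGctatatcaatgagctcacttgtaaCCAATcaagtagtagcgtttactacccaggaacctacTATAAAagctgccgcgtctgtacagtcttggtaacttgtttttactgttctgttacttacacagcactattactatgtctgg
Hist1h3g: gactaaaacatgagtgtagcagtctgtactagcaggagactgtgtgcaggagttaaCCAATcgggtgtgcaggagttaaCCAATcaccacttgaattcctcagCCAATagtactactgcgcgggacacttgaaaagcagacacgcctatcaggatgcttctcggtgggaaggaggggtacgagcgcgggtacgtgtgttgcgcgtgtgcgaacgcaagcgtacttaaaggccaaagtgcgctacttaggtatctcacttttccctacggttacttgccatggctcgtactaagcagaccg
CCAAT was in 49 of the 58 members' promoters (84.5%), against 37.4% of all 32851 RefSeq promoters of that length. It was in all 46 promoters of H1, H2A, H2B and H3 genes but in only 3 of 12 H4 promoters, as the Hist1h4i and Hist4h4 lines above show. The TATA box letters were in 34 of 58 (58.6%, against 13.6% of all promoters) and began 32 bases before the start in Hist1h2ac and 137 bases before it in Hist1h4i. ATTTGCAT was in 12 of 58 (20.7%, against 1.74% of all promoters), 6 of them H2B and 6 H2A genes, and in no H1, H3 or H4 promoter. The windows of divergent partners overlap, so these counts are not independent: 18 of the 58 windows overlap another member's, and the 12 members with the octamer share 9 places in the genome. A match describes the letters in these windows and says nothing of binding.

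The median histone gene lay at about 1 RPKM or under in each library. The median member had 0.764, 0.74 and 0.808 RPKM in Rad23b-/-, KD1 and KD2 cells and 1.04 RPKM in wild-type cells, while the median of other protein-coding genes, counting only those above 0, was 4.76, 4.71 and 4.83 RPKM in the mutants and 5.5 RPKM in wild-type cells. Members with at least 1 RPKM numbered 25, 23 and 30 of 65 in the mutants and 34 of 65 in wild-type cells. These are 38.5%, 35.4% and 46.2% of members in the mutants and 52.3% in wild-type cells, against 54.4%, 53.8% and 53.9% of all other protein-coding genes in the mutants and 52.6% in wild-type cells, so the wild-type shares were close. The 3 highest members made up 29.5% of the wild-type sum. From the steps between low values of short receptor genes, the libraries held about 33.8, 32.5 and 34.2 M reads in the mutants and 25.8 M in wild-type cells.

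**Figure D1:**
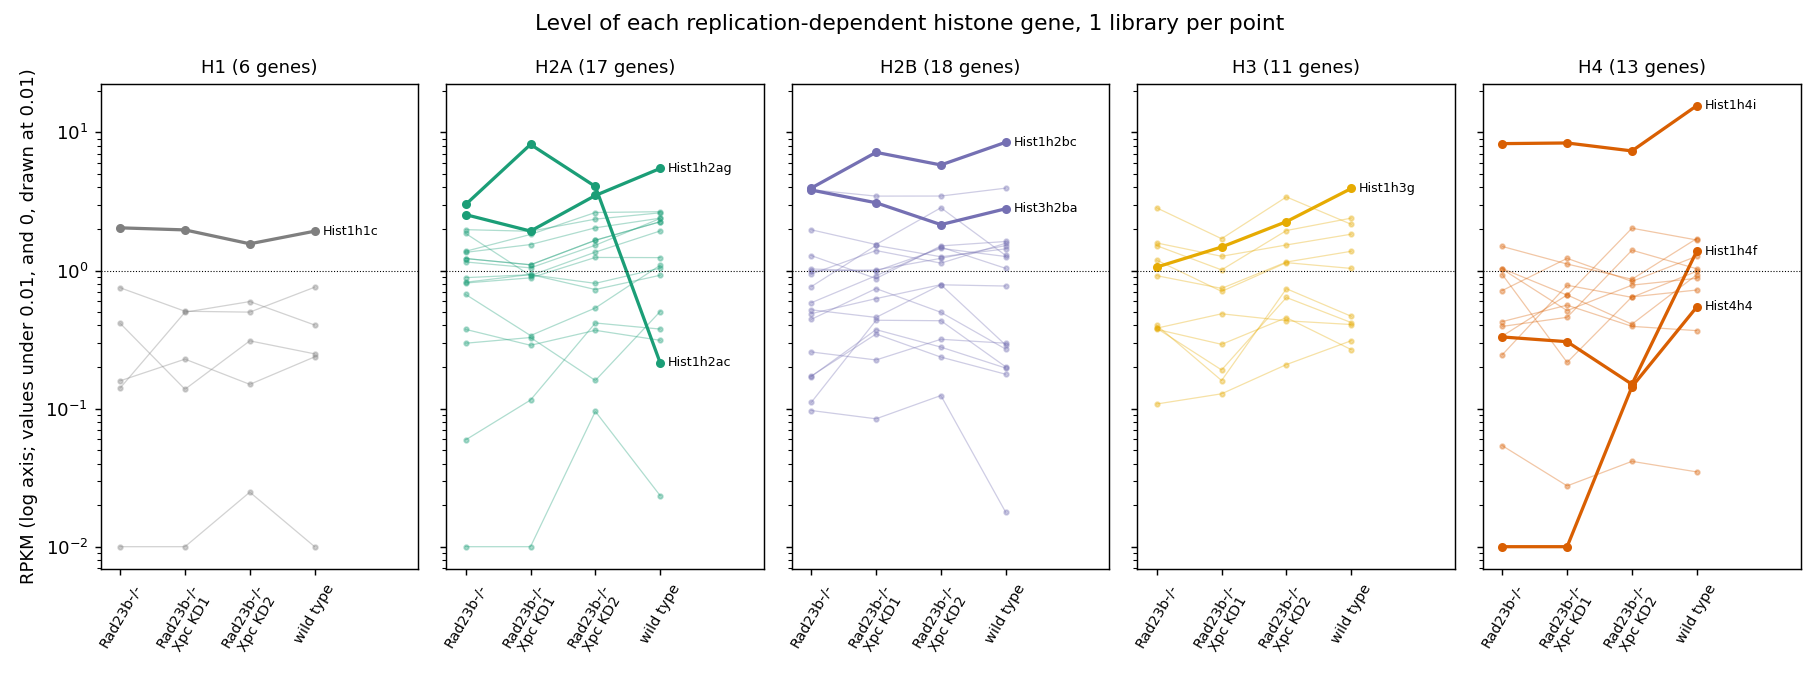
RPKM of each of the 65 genes on a log axis, 1 panel per histone type; each line is 1 gene and each point 1 library, with Rad23b-/-, KD1 and KD2 left of wild type. Hist1h4i stands highest in wild-type cells at 15.6 RPKM and Hist1h2ac lies at 0.215 RPKM in wild-type cells, below its 3 mutant values.

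Hist1h4i, an H4 gene (ENSMUSG00000060639, mm9 chr13, minus strand), had the highest wild-type level of all members. It had 8.30, 8.39 and 7.35 RPKM in Rad23b-/-, KD1 and KD2 cells, against 15.6 RPKM in wild-type cells. All 3 mutant libraries were lower, by log2 ratios of -0.84, -0.79 and -0.97 on the log2(RPKM + 1) scale (-0.68, -0.65 and -0.83 relative to the median gene). At most 151, 146 and 135 reads lay behind the mutant values and 216 behind the wild-type value. From these upper counts, the exact 95% intervals of the 3 mutant to wild-type ratios ran from 0.430 to 0.659, from 0.432 to 0.665 and from 0.377 to 0.587. The intervals cover counting error only, and are too narrow if fewer reads lay behind the values. With 1 library per group none of these differences has a replicate check, and p-values of the authors' deposited table for Hist1h4i were 0.25, 0.231 and 0.148.

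The other H4 genes were lower in sum as well. The 13 H4 genes summed to 15.29, 14.92 and 15.68 RPKM in Rad23b-/-, KD1 and KD2 cells, which was 56.3%, 56.4% and 58.7% of the wild-type sum in the same table. This was the lowest share of the 5 types in the 3 comparisons, and relative to the median gene the H4 sums stayed lower by log2 values of -0.67, -0.68 and -0.62. Without Hist1h4i, the remaining 12 genes stood at 60.7%, 58.2% and 73.6%. Not all of these 12 were lower: 8, 11 and 8 were below wild type in Rad23b-/-, KD1 and KD2 cells, and 4, 1 and 4 above it. Hist1h4f had 0.330, 0.305 and 0.150 RPKM in the mutants and 1.38 RPKM in wild-type cells, from at most 4, 4 and 2 reads against at most 14. On the log2(RPKM + 1) scale Hist1h4f was at least 2-fold lower in KD2 cells (-1.04) but not in Rad23b-/- or KD1 cells (-0.84 and -0.85). Its plain ratios to wild type were 0.239, 0.227 and 0.110 in Rad23b-/-, KD1 and KD2 cells, more than 2-fold lower in each. It had the lowest p-value of any member in the authors' deposited table, 0.037 for KD2. That value was picked from all 65 members in the 3 comparisons and was not adjusted here for their number. No other member was under 0.05. Hist4h4, the lone gene of the Hist4 locus, was read as 0 in Rad23b-/- and KD1 cells. It had 0.144 RPKM in KD2 cells and 0.544 RPKM in wild-type cells, where at most 4 reads lay behind it.

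**Figure D2:**
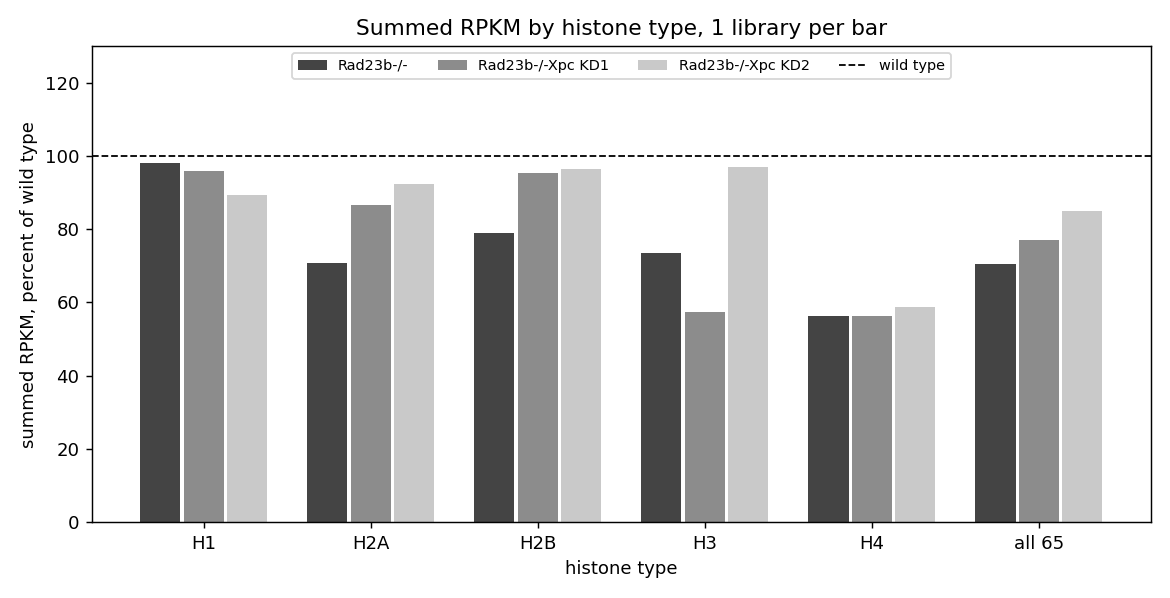
Summed RPKM of the genes of each histone type as percent of the wild-type sum of the same table; bars are Rad23b-/-, KD1 and KD2 (1 library each) and the dashed line is wild type. H4 is between 56.3% and 58.7% in the 3 mutants, while H1 is between 89.4% and 98%, and H3 differs most among the mutants (57.4% to 96.9%).

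The H3 genes differed between the mutants. Their 11 values summed to 10.75, 8.163 and 13.92 RPKM in Rad23b-/-, KD1 and KD2 cells, which was 73.6%, 57.4% and 96.9% of wild type. Relative to the median gene the sums stood at log2 -0.28, -0.66 and 0.1, so KD2 turned slightly higher on that scale. Hist1h3g, the H3 gene of highest wild-type level (ENSMUSG00000062417), had 1.06, 1.48 and 2.26 RPKM in the mutants, against 3.93 RPKM in wild-type cells. It was at least 2-fold lower in Rad23b-/- cells (log2 -1.26; interval of the ratio from 0.150 to 0.460, counting error only) and lower by less in KD1 (-0.96) and KD2 cells (-0.58). Without Hist1h3g the H3 sum was 90.8%, 64.2% and 111% of wild type. Hist1h3h, next in level, had 1.51, 1.01 and 1.95 RPKM in the mutants and 2.40 RPKM in wild-type cells.

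Among the H2A genes, Hist1h2ac differed most from wild type. Hist1h2ac (ENSMUSG00000069270, minus strand) had 3.01, 8.19 and 4.06 RPKM in Rad23b-/-, KD1 and KD2 cells, against 0.215 RPKM in wild-type cells. Each mutant library was above the wild-type one, with log2 ratios of 1.72, 2.93 and 2.06 (1.88, 3.07 and 2.21 relative to the median gene). Among members that reached 1 RPKM, Hist1h2ac was the only one at least 2-fold higher in any mutant on the log2(RPKM + 1) scale. The plain ratio of Hist1h2bj in KD2 cells was 2.25. P-values of the authors' deposited table for Hist1h2ac were 0.571, 0.184 and 0.396.

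Hist1h2ac lies 250 bp from the start of the H2B gene Hist1h2bc, on the opposite strand. Hist1h2bc had 3.95, 7.18 and 5.81 RPKM in the mutants and 8.49 RPKM in wild-type cells, where it ranked second among members, and its log2 ratios were -0.94, -0.18 and -0.46. Hist1h2ac was thus above wild type and Hist1h2bc below it in each mutant, although the KD1 value of Hist1h2bc was -0.04 relative to the median gene. Another divergent pair also had its partners on opposite sides of wild type: Hist1h2ag was lower in each mutant, and Hist1h2bj had 1.97, 1.54 and 2.85 RPKM in the mutants and 1.29 RPKM in wild-type cells. Both have long listed loci, 2482 bp for Hist1h2ac and 8290 bp for Hist1h2bc, while 52 of the 65 members have loci under 1300 bp; the listed values do not say which transcript form they count. There were 13 such divergent pairs, 12 of an H2A and an H2B gene and 1 of an H2B and an H3 gene, with 167 to 692 bp between the starts.

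**Figure D3:**
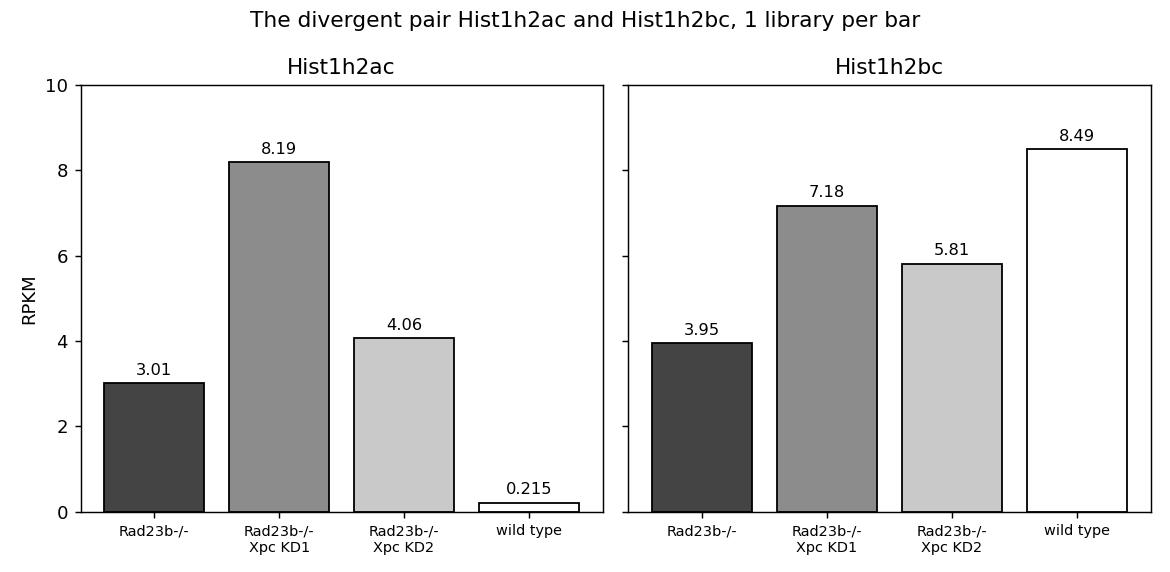
RPKM of Hist1h2ac and Hist1h2bc, which share a promoter region, in the 3 mutants and in wild-type cells (1 library per bar). Hist1h2ac is at 3.01 to 8.19 RPKM in the mutants and 0.215 RPKM in wild-type cells, while Hist1h2bc is at 3.95 to 7.18 RPKM in the mutants and 8.49 RPKM in wild-type cells.

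The other H2A genes were mostly lower, 15, 15 and 11 of the remaining 16 in Rad23b-/-, KD1 and KD2 cells. Without Hist1h2ac, the remaining 16 summed to 60.4%, 56.7% and 77.9% of wild type in Rad23b-/-, KD1 and KD2 cells, against 70.8%, 86.6% and 92.2% with it. Hist1h2ag had 2.54, 1.93 and 3.50 RPKM in the mutants and 5.49 RPKM in wild-type cells, where it ranked below Hist1h4i and Hist1h2bc alone. It was at least 2-fold lower in KD1 cells (log2 -1.12; interval of the ratio from 0.223 to 0.555, counting error only), at -0.87 and -0.51 in Rad23b-/- and KD2 cells, and relative to the median gene the KD1 value was -0.97 and no longer 2-fold. Hist1h2af had 1.38, 1.82 and 2.63 RPKM in the mutants and 2.67 RPKM in wild-type cells. Hist1h2an had 1.98, 1.92 and 2.36 RPKM in the mutants and 2.62 RPKM in wild-type cells. Hist1h2ah had 1.35, 1.54 and 2.04 RPKM in the mutants and 2.39 RPKM in wild-type cells. None of these 3 genes was 2-fold apart, and Hist1h2af in KD2 cells had a log2 ratio of 0 to the wild type of its own table. Hist1h2ao and Hist1h2ap carry the same values in every library, 1.22, 1.10 and 1.66 RPKM in the mutants and 2.26 RPKM in wild-type cells, and are not independent measurements.

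The H2B and H1 sums were nearer to wild type than the H4 sum in each mutant. The 18 H2B genes summed to 78.9%, 95.3% and 96.4% of wild type in Rad23b-/-, KD1 and KD2 cells, which relative to the median gene was log2 -0.18, 0.07 and 0.09. Hist1h2bk, whose promoter with its octamer is shown above, had 3.85, 3.46 and 3.46 RPKM in the mutants and 3.95 RPKM in wild-type cells. Hist3h2ba, the only Hist3 member, had 3.83, 3.10 and 2.15 RPKM in the mutants and 2.80 RPKM in wild-type cells. The 6 H1 genes summed to 98%, 96% and 89.4% of wild type, slightly higher than the median gene in Rad23b-/- and KD1 cells (0.13 and 0.08) and slightly lower in KD2 cells (-0.02). Hist1h1c, the H1 gene of highest level, had 2.04, 1.97 and 1.56 RPKM in the mutants and 1.93 RPKM in wild-type cells. Hist1h1t, the testis linker histone, was read as 0 in Rad23b-/-, KD1 and wild-type cells.

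By cluster, the 55 Hist1 genes summed to 68.1%, 75.4% and 84.4% of wild type in Rad23b-/-, KD1 and KD2 cells. The 8 Hist2 genes summed to 92.5%, 99.3% and 114%, from only 3.14, 3.288 and 3.812 RPKM in the mutants. Hist2h2aa1 was the highest of them in wild-type cells, at 0.888, 0.933 and 0.808 RPKM in the mutants and 1.04 RPKM in wild-type cells. The 65 members together summed to 70.63, 75.1 and 83.67 RPKM in the mutants, or 70.5%, 76.9% and 84.9% of wild type, and relative to the median gene these are log2 values of -0.34, -0.24 and -0.09. In bulk poly-A selected RNA, fewer cells in S phase and less histone RNA per cell cannot be told apart. A smaller part of that RNA with a tail, or carried through the selection, cannot be told apart from either.

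Counted gene by gene on the log2(RPKM + 1) scale, which shrinks differences of low values, few members passed 2-fold. In Rad23b-/- cells 36 members reached 1 RPKM in that library or in wild type, and 1 was at least 2-fold higher (Hist1h2ac; 4.74% of all genes were) and 1 lower (Hist1h3g; 4.61%). In KD1 cells 35 passed, with Hist1h2ac higher (3.95% of all genes) and Hist1h2ag lower (3.4%). In KD2 cells 35 passed, with Hist1h2ac higher (3.93%) and Hist1h4f lower (3.6%). These shares are close to those of all genes. Small differences leaned one way in 2 of the 3 comparisons: with any difference counted, 48 of 64 members above 0 were lower in Rad23b-/- cells (52.9% of other protein-coding genes above 0), 48 of 64 in KD1 cells (55%) and 35 of 65 in KD2 cells (53.7%). The 3 comparisons share the wild-type library, so they are not independent of each other.

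**Figure D4:**
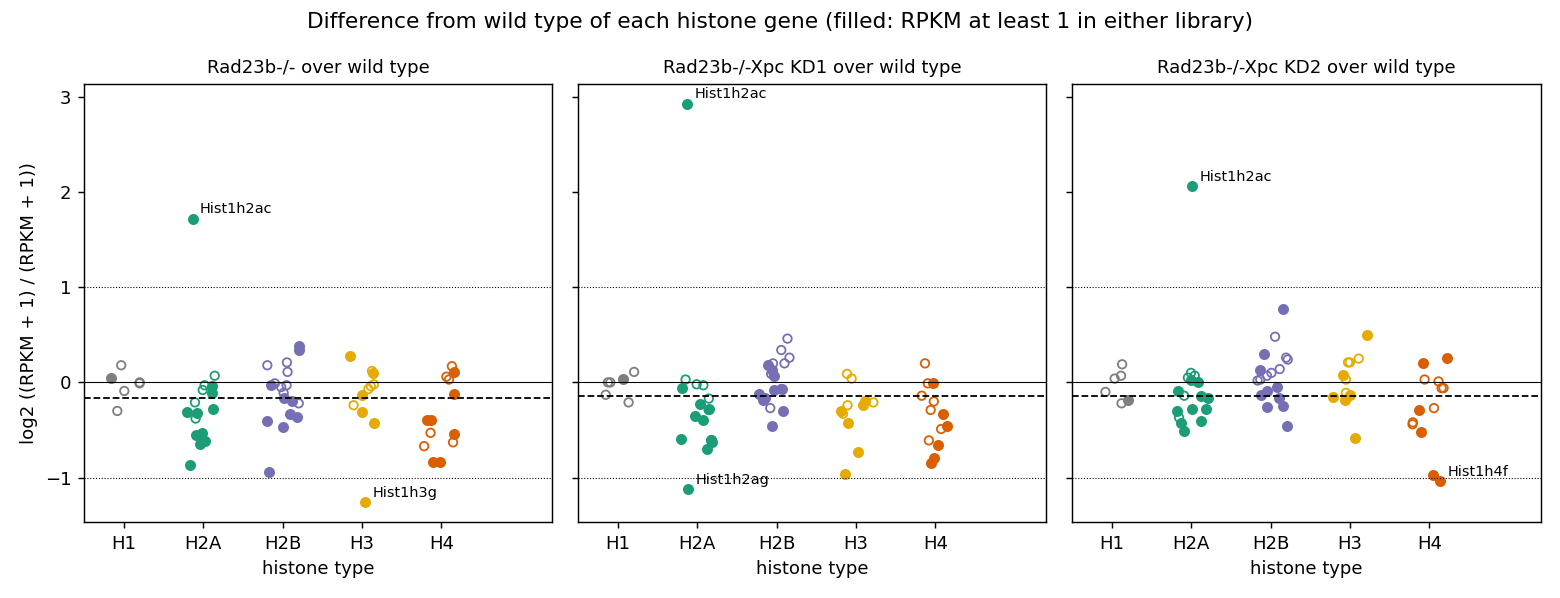
Log2 ratio of RPKM + 1 of each member over wild type, by histone type and mutant; filled points reached 1 RPKM in the mutant or in wild type, the dashed line is the median of all genes that passed this filter and dotted lines mark 2-fold. Hist1h2ac is the only point above the upper dotted line in each panel, at 1.72, 2.93 and 2.06, and 1 named gene per panel lies below the lower one.

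With an Xpc knockdown added to the loss of Rad23b, Hist1h4i stayed close to its Rad23b-/- level, while Hist1h2ac was higher in KD1 cells. The log2 ratios to wild type of KD1 and KD2 cells differed from that of Rad23b-/- cells by 1.20 and 0.34 for Hist1h2ac, by 0.30 and 0.68 for Hist1h3g, and by 0.05 and -0.13 for Hist1h4i. On the log2(RPKM + 1) scale no member differed 2-fold between the knockdowns themselves, while 3.27% of 15152 genes did. The added 1 shrinks differences of low values. In plain RPKM, Hist1h2ac had 8.19 in KD1 and 4.06 in KD2 cells, and Hist1h4d had 0.664 and 2.03. The middle 68% of the 15152 genes lay within 0.22 of 0 on the log2 scale. This is the only gauge of library-to-library spread available. It spans genes of many levels and different hairpins, so the spread of members near 1 RPKM may be larger.

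Histone genes outside the clusters include the variants H2A.Z, H3.3 and macroH2A, which can enter chromatin outside S phase. Of the 13 on the list, 11 passed the filter, with median log2 ratios of -0.74, -0.49 and -0.68 in Rad23b-/-, KD1 and KD2 cells (-0.57, -0.35 and -0.54 relative to the median gene). None was 2-fold higher, and 2, 1 and 0 were 2-fold lower. H2afz, the H2A.Z variant, had 689, 911 and 763 RPKM in the mutants and 1434 RPKM in wild-type cells. H2afy, macroH2A1, had 94.2, 105 and 112 RPKM in the mutants and 218 RPKM in wild-type cells, on coordinates it shares with another gene. H3f3b, which encodes H3.3, had 520, 546 and 511 RPKM in the mutants and 841 RPKM in wild-type cells. H3f3a, which also encodes H3.3, differed less. It had 664, 821 and 729 RPKM in the mutants and 914 RPKM in wild-type cells, on coordinates it shares with other genes. Its log2 ratios were -0.46, -0.12 and -0.3, and the KD1 value was close to that of the median gene (-0.14). H2afx, the H2A.X variant, had 123, 156 and 117 RPKM in the mutants and 205 RPKM in wild-type cells. Hils1 was read as 0 in every library. H1f0 (51.7, 50.9 and 52.9 RPKM in the mutants and 48.9 RPKM in wild-type cells) and H2afj (12.1, 13.7 and 11.9 RPKM in the mutants and 10.9 RPKM in wild-type cells) were not lower.

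The factors that make and process histone mRNA differed less. Of 19 genes of histone transcription and 3' end formation, all passed and none was 2-fold apart in any mutant, with median log2 ratios of -0.23, -0.24 and -0.21. Slbp, which binds the stem-loop, had 90.7, 91.6 and 89.7 RPKM in the mutants and 111 RPKM in wild-type cells. Npat, the coactivator of these genes, had 18.9, 15.9 and 16.4 RPKM in the mutants and 18.0 RPKM in wild-type cells. The 11 poly-A site factors and 18 histone chaperones held no member 2-fold apart either, with medians of -0.32, -0.47 and -0.36 and of -0.31, -0.28 and -0.28. Of 37 S phase genes, 2 were 2-fold lower in Rad23b-/- cells (Gins1 at 18.2 RPKM against 41.3 RPKM in wild type, and Tyms at 48.4 against 105 RPKM) and none in KD1 or KD2 cells, with medians of -0.40, -0.28 and -0.34. RNAs that carry no tail showed no single direction: small nuclear RNAs summed to 2641.9, 2351.9 and 2617.2 RPKM in the mutants and 1975.5 RPKM in wild-type cells, small nucleolar RNAs to 20026, 20506 and 19691 RPKM in the mutants and 28294 RPKM in wild-type cells, and the class named misc_RNA to 111.58, 94.628 and 121.04 RPKM in the mutants and 108.92 RPKM in wild-type cells. Their part in the histone values was not tested.

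RAD23B was found at the histone genes themselves in wild-type cells. All 65 members lay within 5 kb of a region listed in both replicates, against 56% of 15135 other protein-coding genes, and 56 of 56 members with a locus under 2 kb did so, against 16.6% of other genes that short. A shared region lay over the listed locus of 60 members, against 49.5% of other genes and 9.06% of short ones. Here and below, the other genes set against regions are those whose listed coordinates no other gene shares, while 2 members share theirs. These other genes were not matched to the members by RNA level or by spacing along the chromosome. Counting only shared regions of an authors' fold of at least 2, 40 of 65 members lay within 5 kb of one (28.3% of other genes), as did 36 of 56 short ones (6.96%). The 5 members with no shared region over the locus were Hist1h2bm, Hist1h1t, Hist1h2ah, Hist1h2ba and Hist2h2ac. The start of transcription lay inside a region for 58 members in replicate 1, 55 in replicate 2 and 54 in both. In replicate 1, 75 distinct regions were within 5 kb of a member and 64 of them overlapped a replicate 2 region; 11 regions covered 2 members at once, mostly divergent pairs, so members do not count as independent sites.

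Most regions at histone genes were weak by the authors' fold of RAD23B over IgG. The 63 replicate 1 regions over a member had a median fold of 1.64, against 1.88 for the whole list of 59768, while their height was above most, at a median of 1.44 RPM (highest read pile-up per M reads) against 0.805 RPM. They held a median of 363 RAD23B and 218 IgG reads per kb, against 262 and 136 in the whole list, so IgG reads were also more frequent there. Near-identical histone genes can share reads, and how reads that match more than 1 place were treated is not given in the sources used here.

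Regions over H4 genes stood apart from the others. The 13 replicate 1 regions over an H4 gene alone had a median fold of 2.27 and a median height of 2.81 RPM, against 1.61 and 1.35 RPM for 49 regions over other types. In replicate 2 the medians were 2.45 and 2.39 RPM over 14 H4 regions, against 1.7 and 1.19 RPM over 46 others. A fold of at least 2 over the locus was listed for 12 of 13 H4 genes in replicate 1 and in replicate 2, against 2 of 52 and 5 of 52 other members; among short protein-coding genes the share was 2.7% and 2.95%, and among all of them 24.9% and 26.4%. The H4 regions held a median of 599 RAD23B and 245 IgG reads per kb in replicate 1, against 350 and 210 for the other types, so the difference lay mainly in the RAD23B reads. Regions of 1 library are not replicates, so no test was made, and the 2 lists gave the same order. The fold of the replicate 2 list is headed with replicate 1 library names, and which libraries it compares was not tested.

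Single H4 genes show this with little spread. The region over Hist1h4i (mm9 chr13:22132648-22133568) held 643 RAD23B and 258 IgG reads in replicate 1, with folds of 2.37 and 2.57 in replicates 1 and 2. The region over Hist4h4 (mm9 chr6:136752249-136753279), whose RNA had 0.544 RPKM in wild-type cells, held 737 RAD23B and 321 IgG reads, with folds of 2.19 and 2.31. The region over Hist1h4f (chr13:23643073-23643890) held 468 and 200 reads, with folds of 2.22 and 2.52. Per kb these were 699 RAD23B reads at Hist1h4i, 716 at Hist4h4 and 573 at Hist1h4f, although Hist1h4i had the highest RNA level of all members. Hist1h4a was the exception among H4 genes, under a region of fold 1.47 that also runs over Hist1h3a in replicate 1 and one of fold 1.42 in replicate 2.

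**Figure D5:**
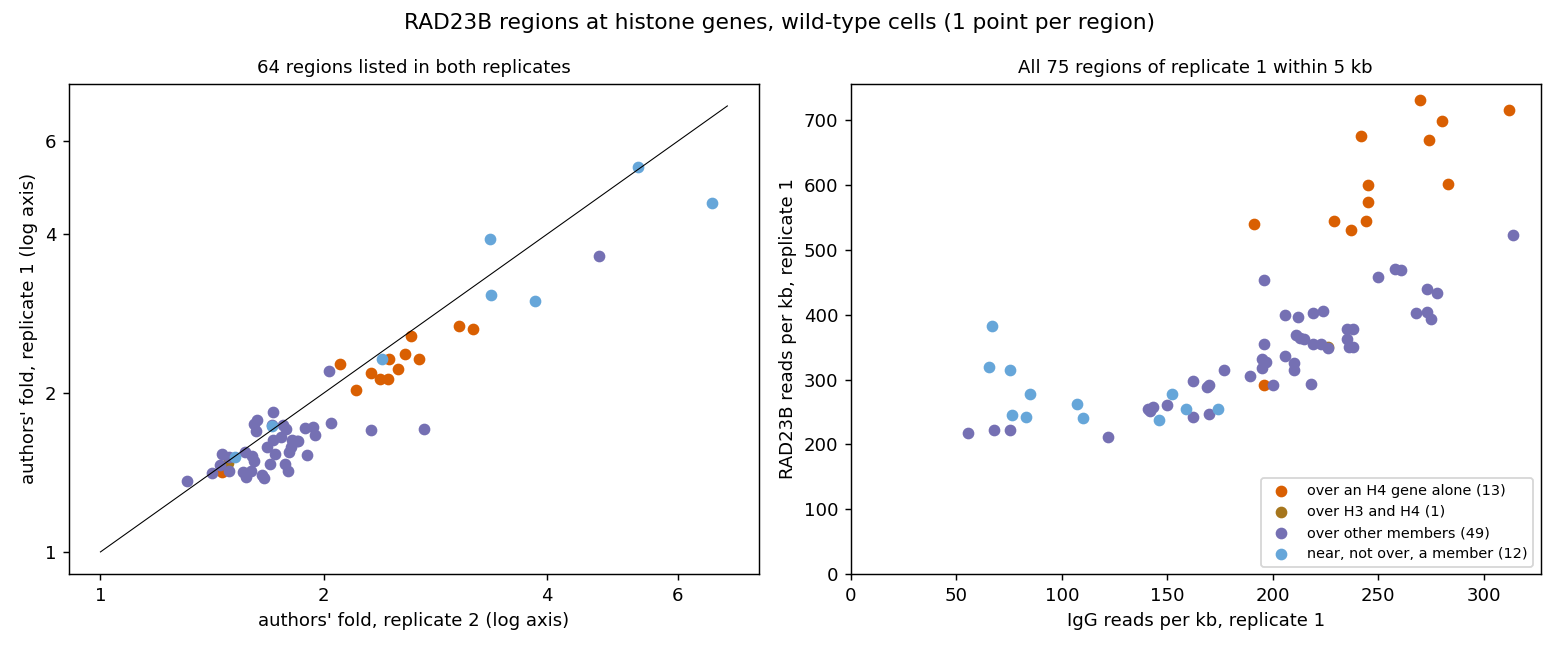
Left, the authors' fold of each region within 5 kb of a member in replicate 2 (x, log axis) and replicate 1 (y, log axis) for the 64 regions listed in both, with the line of equal fold; right, RAD23B against IgG reads per kb in replicate 1 for all 75 regions. Regions over H4 genes alone lie between 531 and 730 RAD23B reads per kb, except 1 of the pair over Hist2h4 (292), and above the other members' regions at like IgG counts.

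Among the other named members, Hist1h2ac and Hist1h2bc lay under 1 shared region (chr13:23775279-23776696) with 516 RAD23B and 302 IgG reads and folds of 1.63 and 1.71. Hist1h3g had folds of 1.72 and 1.93, Hist1h2bk 1.51 and 1.49, and Hist1h2ag, with its partner Hist1h2bj, 1.54 and 1.72. Hist1h1c was the only H1 gene with a fold of at least 2 in both replicates (2.21 and 2.04).

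The highest folds near members lay mostly beside and not over them. The 6 shared regions of highest replicate 1 fold included 5 that overlapped no member. The region of highest fold in replicate 1 (chr13:23833791-23834360) lay 1556 bp from Hist1h1c, with 158 reads at its peak and folds of 5.36 and 5.30. Another lay 338 bp from Hist1h2al (chr13:51298772-51299385; folds 4.59 and 6.67, the highest in replicate 2). The next 3 of these lay 585 bp from Hist1h2be (3.91 and 3.35), 1192 bp from Hist1h2bp (3.07 and 3.36) and 319 bp from Hist1h1a (2.99 and 3.86). The sixth (chr13:23678240-23678673; 3.63 and 4.70) fell within the 37383 bp listed for Hist1h2be, the longest locus of any member. The 12 replicate 1 regions that overlapped no member were narrower than the 63 that did, with a median of 494 bp against 812 bp. They held fewer reads of both kinds, with medians of 96 IgG reads per kb against 218 and 258 RAD23B reads per kb against 363. Their height was also lower, at a median of 0.828 RPM against 1.44 RPM, so their higher folds went with few IgG reads.

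In Xpc-/- cells no member lay within 5 kb of a listed region (0 of 65), against 2.51% of other protein-coding genes and 0.639% of short ones. That list is short, with 828 regions against 59768 and 42364 in the wild-type replicates, and 7 of them were on chromosome 13 and 12 on chromosome 3. Hist2h2bb lay nearest to one of these regions, at 42.9 kb, every Hist1 gene was at least 456 kb away, and Hist4h4 lay farthest, at 11500 kb. All 828 regions held more reads in the column headed IgG than in the one headed RAD23B, and which library each heading stands for was not tested. With a background of 2.51%, 0 of 65 is not a result about the histone genes.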

How the data were processed

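RNA was measured in 4 poly-A selected libraries and RAD23B or IgG chromatin immunoprecipitation in 6. RPKM values per gene and their p-values were deposited by the authors in 3 pairwise tables; TopHat2 2.0.6, Cufflinks 2.0.2, Cuffdiff, Partek and the mm9 build are named in the submitters' processing notes. The region lists give, per the file headers, read counts of both libraries, the highest pile-up as RPM, and a fold (ratio) of RAD23B over IgG; the caller's settings and the treatment of reads matching several places and the use of strand in counting are not stated in any source used. The 3 RPKM tables were scaled separately (wild type differs 1.026 and 1.017 times), so each mutant was compared with the wild type of its own table. A deposited RPKM of exactly 1 was read as 0. Kept as 1, it gave log2 ratios of the summed members of -0.48, -0.36 and -0.25 in Rad23b-/-, KD1 and KD2 cells. Read as 0, these were -0.51, -0.38 and -0.24.

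With 1 RNA library per group there was no test: a gene counted as 2-fold apart at an absolute log2((RPKM + 1)/(RPKM + 1)) of 1 among genes reaching 1 RPKM on one side or the other. Members named were the 10 of highest wild-type RPKM, those 2-fold apart, the highest of each type and cluster, those next to the 6 shared regions of highest fold and those without a region; the other members and the list genes named were chosen after their values were seen. Regions were joined to listed loci within 5 kb, with 1 bp of overlap counting as shared. Members and lists were chosen with earlier results of these data known. Left out were 72 rows naming no gene and the 2 read count columns of the replicate 2 list, whose headings name replicate 1 libraries. The fold of the replicate 2 list is headed with the same replicate 1 names but was kept. Which libraries it compares was not tested. The region lists imply 145.1 M reads for Xpc-/- cells and 109.3 M and 62.53 M for wild-type replicates 1 and 2. Intervals (95%) cover counting error only and rest on the upper read counts, so they can be too narrow. Calculations used Python 3.11.15, numpy 2.4.6, pandas 2.3.3, scipy 1.17.1 and matplotlib 3.10.9, and were tested on simulated data. The stem-loop sequences were not analysed here.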

Additional observations from a re-analysis of the deposited data

How the results depend on the processing

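Of 73 alternatives, 56 kept the result within its tolerance, 17 moved it. The sign turned for 1: without Hist1h3g the H3 sum in KD2 cells stood at log2 0.15, against -0.05 with it, a move within the tolerance of 0.22. The 2 members at least 2-fold apart in Rad23b-/- cells became 6 with a pseudocount of 0.1 and 0 with a pseudocount of 5 or a minimum of 5 RPKM. In KD1 cells they became 8 and 1 under those pseudocounts and 1 after centring on the median gene. In KD2 cells they became 4 and 0 under those pseudocounts, 0 at a minimum of 5 RPKM, 1 with the filter on the mean and 1 after centring. The median log2 ratio of members that passed was -0.33 in Rad23b-/- cells. It moved to -0.6 with a pseudocount of 0.1 and to -0.87 at a minimum of 5 RPKM. In KD2 cells it moved from -0.16 to -0.51 at that minimum. At that minimum 3 members were left in each. Hist1h2ag in both, and Hist1h2bc in Rad23b-/- cells, reached 5 RPKM in wild type alone. A lower median is built into such a filter, so these 2 values at 5 RPKM say nothing of the direction. The minimum of 1 RPKM behind the -0.33 and -0.6 selects in part the same way. It was reached by 34 members in wild type and by 25 in Rad23b-/- cells. With no filter the median over all 65 members was -0.13, -0.2 and -0.06 in Rad23b-/-, KD1 and KD2 cells. Leaving out single genes was chosen after seeing the data: without Hist1h3g the H3 sum in Rad23b-/- cells stood at log2 -0.14, and without Hist1h4i the H4 sum in KD2 cells at -0.44. Counting only wild-type regions of fold 2 or more left 40 of 65 members within 5 kb of one, against 28.3% of other protein-coding genes. Leaving out either wild-type replicate gave 65 and 65. No paired analysis was possible because each RNA group has 1 library and the region results come from no test. Low read numbers limit most members under 1 RPKM.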
